A study of Rattus norvegicus with 10 samples.

Results

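Chemokines are small secreted proteins that guide moving cells, and 52 genes that encode them or their receptors were described in rat prefrontal cortex (PFC) 24 h after footshock (FS) stress. They were taken by name: 34 ligand genes of the CC, CXC, CX3C and XC classes and 18 receptor genes, 2 of them atypical receptors. Of the 52 genes, 51 had a probe set that carried their name alone, out of 16941 genes tested on the array. Cxcl16 shares its only probe set with Zmynd15 and was not tested under its own name. Where 2 probe sets named a gene, that with the higher mean over the 10 arrays was taken, which concerned Ccr3 alone.

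The stressed animals were 5 FS rats, given random shocks of 0.8 mA adding up to 20 min within a 40 min session and killed 24 h after its start. They were compared with 5 control rats left undisturbed in their home cages. All were adult male Sprague–Dawley rats. Rats are numbered 1 to 5 within each group as labelled. The labels state no pairing of rats that share a number, and they were treated as unpaired. Each gave 1 array from total RNA of PFC tissue, so cell types were mixed. Every value below is a log2 signal after robust multi-array averaging (RMA), each difference is FS minus control on that scale, and a difference of 1 is a doubling of signal.

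Receptors of chemokines couple mostly to inhibitory G proteins and steer a cell up a gradient of ligand. Atypical receptors bind ligand without this coupling and take it up or shape its gradient. Inflammatory chemokines such as Ccl2, Cxcl1 and Cxcl10 are switched on by cytokines through NF-kB and interferon-activated factors and draw monocytes, neutrophils or T cells. Homeostatic chemokines are made without inflammation. In the brain, neurons carry Cx3cl1 (fractalkine), which microglia read through Cx3cr1, and Cxcl12 with its receptors Cxcr4 and Ackr3 places neurons during development.

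Promoter windows of 6 members are printed, 4 for their CpG content at different levels of signal and 2 for the motifs found in inducible ligands. Each window runs over 300 bases of the RefSeq assembly GRCr8, 250 before the annotated start and 50 after it, 5′ to 3′ on the gene's strand. In the first 4 the capitals mark CpG dinucleotides. Cx3cl1 and Cxcl12 had strong signal, Ccl17 had mid-range signal and Ccr1 lay near background.
Cx3cl1 (chr19:10242771-10243070, minus strand): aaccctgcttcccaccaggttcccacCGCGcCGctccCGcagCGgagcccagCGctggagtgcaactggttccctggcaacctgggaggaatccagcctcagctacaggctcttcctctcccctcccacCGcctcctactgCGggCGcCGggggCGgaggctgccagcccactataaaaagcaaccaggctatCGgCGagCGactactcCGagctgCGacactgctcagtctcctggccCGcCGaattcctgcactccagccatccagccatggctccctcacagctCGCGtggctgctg
Cxcl12 (chr4:152060531-152060830, plus strand): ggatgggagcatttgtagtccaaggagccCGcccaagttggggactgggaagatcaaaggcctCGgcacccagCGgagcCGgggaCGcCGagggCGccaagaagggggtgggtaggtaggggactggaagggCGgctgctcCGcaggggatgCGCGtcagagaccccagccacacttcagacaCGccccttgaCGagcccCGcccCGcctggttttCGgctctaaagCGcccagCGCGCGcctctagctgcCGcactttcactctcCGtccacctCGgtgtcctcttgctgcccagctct
Ccl17 (chr19:10209846-10210145, minus strand): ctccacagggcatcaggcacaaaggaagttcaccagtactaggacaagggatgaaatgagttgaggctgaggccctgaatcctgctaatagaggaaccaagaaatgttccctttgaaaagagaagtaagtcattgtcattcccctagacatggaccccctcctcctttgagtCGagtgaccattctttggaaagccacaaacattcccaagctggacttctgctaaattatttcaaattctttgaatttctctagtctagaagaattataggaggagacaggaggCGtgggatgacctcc
Ccr1 (chr8:132439217-132439516, minus strand): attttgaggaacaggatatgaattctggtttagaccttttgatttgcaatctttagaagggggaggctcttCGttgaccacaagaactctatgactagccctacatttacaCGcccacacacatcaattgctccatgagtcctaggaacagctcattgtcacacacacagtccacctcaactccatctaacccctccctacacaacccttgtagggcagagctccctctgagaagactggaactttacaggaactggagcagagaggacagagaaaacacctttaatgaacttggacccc

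In the next 2 windows the capitals mark matches to 3 motifs. These are the TATA box TATAAA on the gene's strand, the core of the interferon-stimulated response element GAAANNGAA on either strand, and the NF-kB (kappaB) consensus on either strand. Cxcl10 held all 3, starting 162, 243 and 187 bases before the start. Cxcl1 held overlapping kappaB matches that begin 84 and 83 bases before the start.
Cxcl10 (chr14:15988816-15989115, plus strand): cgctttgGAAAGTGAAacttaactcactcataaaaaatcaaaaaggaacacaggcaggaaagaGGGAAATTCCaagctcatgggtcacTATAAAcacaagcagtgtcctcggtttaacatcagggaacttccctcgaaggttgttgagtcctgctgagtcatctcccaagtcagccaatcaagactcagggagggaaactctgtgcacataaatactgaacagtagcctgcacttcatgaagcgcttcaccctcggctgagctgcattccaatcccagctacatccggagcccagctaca
Cxcl1 (chr14:17479272-17479571, minus strand): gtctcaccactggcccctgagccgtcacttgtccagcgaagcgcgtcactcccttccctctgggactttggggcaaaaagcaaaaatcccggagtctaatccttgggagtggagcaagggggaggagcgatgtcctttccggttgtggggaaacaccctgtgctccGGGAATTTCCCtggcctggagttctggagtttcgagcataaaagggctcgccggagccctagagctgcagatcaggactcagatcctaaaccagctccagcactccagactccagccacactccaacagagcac

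Over the 10 rats the members' mean signal ran from 4.53 (Ccr1) to 11.29 (Cx3cl1). A probe set's signal depends on its own probes, so these levels do not rank the transcripts by amount. As a guide to background, 975 probe sets of olfactory receptor genes, which cortex is not expected to use, had a median of 5.24 and a 95th percentile of 6.76, and 80.8% of them lay under 6. Of the 51 members, 15 had a mean under 6 and were treated as near background, and 36 had a mean of 6 or more. Just under that line were Cxcl2 (5.84) and Ccr4 (5.89), and just over it were Ccr6 (6.09) and Ccr2 (6.19). A total of 21 members lay above the 95th percentile of the olfactory receptors and 4 above their maximum of 8.93.

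Few members had clear signal, and they included ligands that brain cells are known to make. Cx3cl1 was at 11.35, 11.23, 11.42, 11.21 and 11.31 in FS rats 1 to 5, against 11.34, 11.27, 11.26, 11.30 and 11.24 in controls 1 to 5. Cxcl12 was at 9.79, 9.91, 10.02, 9.94 and 9.83 in FS rats 1 to 5, against 9.98, 9.85, 9.91, 9.94 and 9.80 in controls 1 to 5. Cxcl14, a homeostatic ligand, was at 8.78, 8.71, 8.75, 8.73 and 8.74 in FS rats 1 to 5, against 8.79, 8.71, 8.71, 8.78 and 8.64 in controls 1 to 5. For these 3 ligands the groups overlapped and no rat stood apart. Ackr3, the atypical receptor that takes up Cxcl12, was at 8.95, 9.09, 9.16, 8.93 and 9.08 in FS rats 1 to 5, against 9.03, 8.997, 9.03, 9.09 and 9.24 in controls 1 to 5. Control 5 was the highest of all rats for Ackr3 and the groups overlapped. Ccl27, a ligand of Ccr10, lay between 9.23 and 9.41 in FS rats and between 9.26 and 9.40 in controls.

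**Figure D1:**
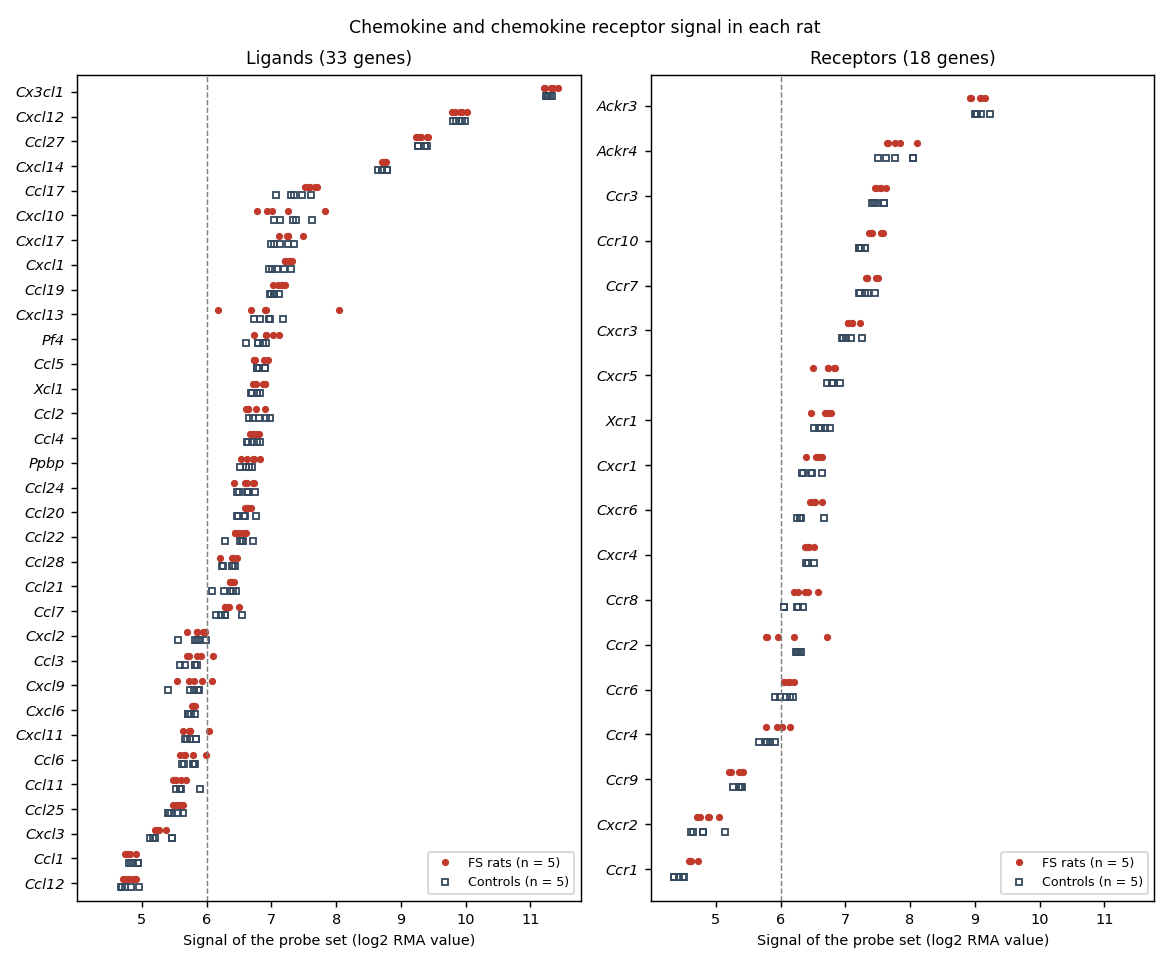
Signal of the probe set of each of 51 members in every rat (log2 RMA value), ligands on the left and receptors on the right, with filled circles for 5 FS rats and open squares for 5 controls and genes ordered by their mean. Most members lie between 5 and 7.5, the dashed line marks the level of 6 that sets apart genes near background, and only Ccr1 and Ccr10 show every FS rat above every control.

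Across all 18304 probe sets tested, 0 passed an adjusted p of 0.05 in limma, which is 0% of them, and 0 of the 51 members passed. The smallest adjusted p of a member was 0.302. Changes in the number of cells of a type and in RNA per cell cannot be told apart in such tissue samples. At an unadjusted p under 0.05, 7 members were higher in FS rats: Ccr1, Ccr10, Ccl17, Ccr4, Cxcl1, Ccr8 and Ccl19. That is 13.7% of members, where 5.75% of all probe sets were higher at this level. The other direction held 0 members and 4.09% of all probe sets. By class, 4 of 18 receptors (22.2%) and 3 of 33 ligands (9.09%) were among the 7. The count of 7 moved with single rats: it was 4 without control replicate 4 and 13 without control replicate 5. The share of all probe sets that were higher moved too, to 4.52% without control replicate 4 and 8.97% without control replicate 5. Lower members appeared without FS replicate 2 (2, Ccl2 and Ccr2), FS replicate 4 (1, Ccl1) and FS replicate 5 (1, Cxcl10). With those rats left out, 3.93%, 3.00% and 3.92% of all probe sets were lower, in the same order.

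The array itself leaned the same way at these signal levels. Among probe sets with a mean of 6 to 7.5, an upper limit chosen after the values were seen, 11.8% were higher at an unadjusted p under 0.05 and 2.41% lower. Of the 29 members in this range, 5 were higher (17.2%) and 0 lower. Among probe sets under 6, 7.87% were higher and 2.54% lower, against 2 of 15 members (13.3%) higher and 0 lower. None of the 7 members at 7.5 or more had such a p.

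Signs leaned likewise. A positive difference was found in 37 of 51 members (72.5%, median 0.036), and in 50.3% of all probe sets (median 0.00044). Within 6 to 7.5 the shares were 75.9% of members and 67.7% of probe sets, and under 6 they were 66.7% and 62.8%. The median centred signal of all 5030 probe sets in the 6 to 7.5 range lay between 0.0030 and 0.030 in FS rats and between -0.046 and -0.021 in controls 1 to 4, while control 5 was highest at 0.033. That shift of the whole range moved in the direction of the members' differences, and its part in them was not tested.

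**Figure D2:**
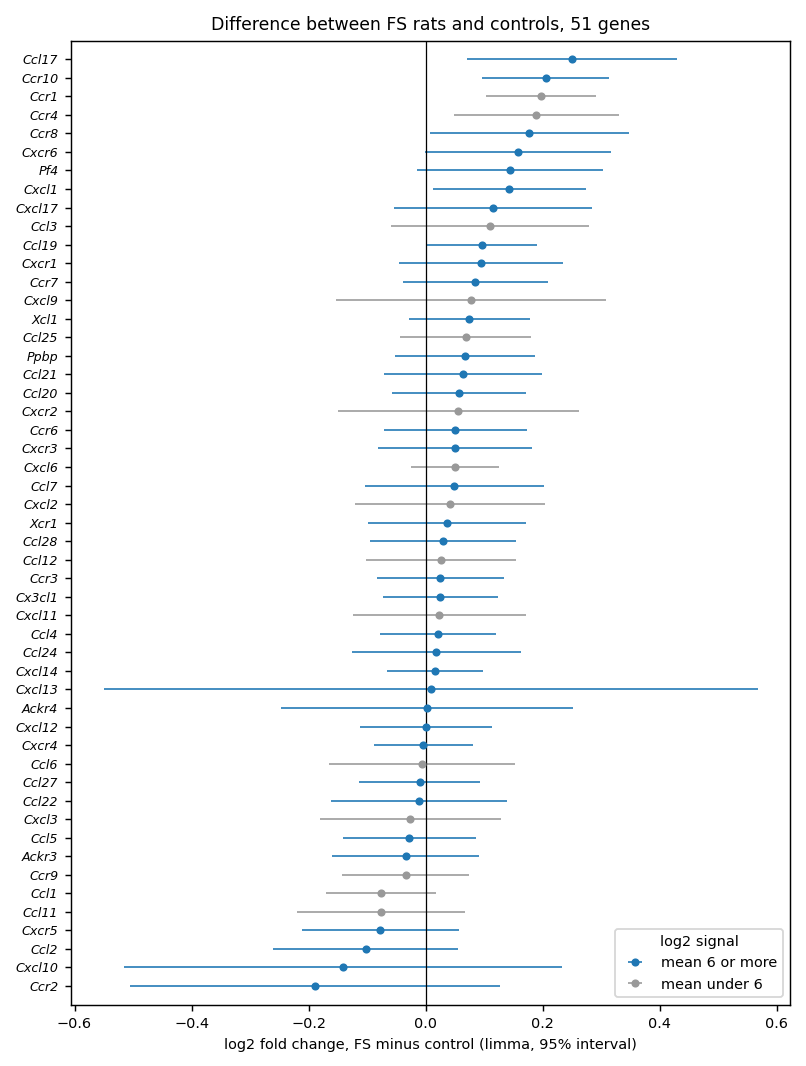
Difference between FS rats and controls for each of 51 members (log2 fold change, FS minus control, with the 95% interval of limma), ordered by size, with 36 genes of mean signal 6 or more in blue and 15 under 6 in grey. Points run from 0.25 (Ccl17) to -0.19 (Ccr2), and the widest interval is that of Cxcl13 (-0.55 to 0.57).

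Precision differed between members. The standard error of the difference had a median of 0.062 over the 51 members, against 0.052 over all probe sets, and ran from 0.035 (Cxcl6) to 0.26 (Cxcl13). The number of arrays was the same for every member, so these standard errors differ with the spread between rats. The SD among FS rats was 0.68 for Cxcl13 and 0.016 for Cxcl6. With 5 rats against 5, an exact permutation test over all regroupings of the rats into 5 and 5 reaches a two-sided p of 0.00794 at the lowest. The permutation p-values below are two-sided, 1 per member, and not adjusted for the 51 computed.

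Both members with complete separation of the groups were receptors. Ccr1, a receptor of Ccl3 and Ccl5 on monocytes and other leukocytes, was at 4.61, 4.61, 4.58, 4.72 and 4.62 in FS rats 1 to 5, against 4.43, 4.36, 4.50, 4.36 and 4.49 in controls 1 to 5. All FS rats lay above all controls, and FS 4 was the highest. Its log2 fold change was 0.20 (95% interval 0.10 to 0.29, adjusted p = 0.302 in limma, exact permutation p = 0.00794). At this level the signal of Ccr1 was below that of nearly all other probe sets and 2.39% of them were lower still. Ccr10, a receptor on skin-homing and mucosal lymphocytes, was at 7.37, 7.55, 7.41, 7.59 and 7.39 in FS rats 1 to 5, against 7.21, 7.31, 7.31, 7.21 and 7.25 in controls 1 to 5. FS 2 and FS 4 were the highest and the groups did not overlap. Its log2 fold change was 0.21 (95% interval 0.097 to 0.31, adjusted p = 0.350 in limma, exact permutation p = 0.00794). Such separation was seen in 2 of 51 members (3.92%) in the higher direction and 0 in the lower, and in 0.972% of all probe sets in the higher direction and 0.972% in the lower. At a mean of 6 to 7.5, 89 of 5030 probe sets were separated as higher and 17 as lower, against 1 of 29 members (3.45%) higher. Under 6 these were 30 and 7 of 2873 probe sets, against 1 of 15 members (6.67%) higher.

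Genes next to these receptors, in position or in function, gave smaller differences. On GRCr8, Ccr10 overlaps Cntnap1, a neuronal gene whose own probe set had a mean of 10.47 and differed by -0.023 (adjusted p = 0.880 in limma, standard error 0.043). The ligands of Ccr10 gave -0.0099 (Ccl27) and 0.030 (Ccl28). The ligands of Ccr1 gave 0.11 (Ccl3), -0.028 (Ccl5) and 0.049 (Ccl7). Ccl3, at 5.69, 6.10, 5.91, 5.73 and 5.85 in FS rats 1 to 5, against 5.81, 5.58, 5.85, 5.66 and 5.83 in controls 1 to 5, was near background, with FS 2 the highest and overlapping groups. The log2 fold change was 0.11 (standard error 0.078, adjusted p = 0.651 in limma), and it was 0.050 without FS 2 and 0.068 without control 2.

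Ccr4 and its ligand Ccl17 were both among the 7. This receptor marks helper and regulatory T cells, and dendritic cells are a known source of Ccl17. Ccl17 was at 7.51, 7.60, 7.67, 7.56 and 7.70 in FS rats 1 to 5, against 7.35, 7.47, 7.304, 7.07 and 7.61 in controls 1 to 5. Every FS rat was above controls 1 to 4, and control 5 overlapped the FS rats. With the deposited values Ccl17 had the largest log2 fold change of the members, 0.25 or 1.19-fold (95% interval 0.070 to 0.43, adjusted p = 0.399 in limma, exact permutation p = 0.0397). Ccr4 was at 5.78, 5.95, 6.14, 6.03 and 6.02 in FS rats 1 to 5, against 5.84, 5.78, 5.79, 5.66 and 5.91 in controls 1 to 5. FS 1 lay among the controls and the other FS rats lay above them. The log2 fold change was 0.19 (standard error 0.065, adjusted p = 0.413 in limma), with an exact permutation p of 0.0397. Ccl22, the other ligand of Ccr4, gave -0.012, with values from 6.43 to 6.61 in FS rats and from 6.28 to 6.71 in controls.

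Cxcl1, a neutrophil chemokine of the CXC class, was at 7.29, 7.21, 7.27, 7.31 and 7.20 in FS rats 1 to 5, against 7.19, 6.97, 7.09, 7.01 and 7.31 in controls 1 to 5. All FS rats lay within a narrow range at the top and control 5 lay near the highest of them. For Cxcl1 the log2 fold change was 0.14 (standard error 0.060, adjusted p = 0.480 in limma), with an exact permutation p of 0.0714. The other ligands of this kind gave 0.042 (Cxcl2), -0.026 (Cxcl3) and 0.050 (Cxcl6), all with means under 6. Cxcl6 was at 5.80, 5.78, 5.79, 5.82 and 5.80 in FS rats 1 to 5, against 5.71, 5.72, 5.72, 5.83 and 5.76 in controls 1 to 5. FS rats were above controls 1, 2, 3 and 5 and below control 4, and the log2 fold change was 0.050 (standard error 0.035, adjusted p = 0.643 in limma). The receptors Cxcr1 and Cxcr2, which neutrophils carry, gave 0.094 and 0.056.

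Ccr8, a receptor of T cells and skin-resident cells, was at 6.27, 6.38, 6.21, 6.43 and 6.58 in FS rats 1 to 5, against 6.27, 6.06, 6.35, 6.05 and 6.26 in controls 1 to 5. FS 5 was the highest and the groups overlapped. The log2 fold change was 0.18 (standard error 0.078, adjusted p = 0.499 in limma), with an exact permutation p of 0.0873. Its ligand Ccl1 was near background at 4.76, 4.79, 4.74, 4.90 and 4.81 in FS rats 1 to 5, against 4.94, 4.84, 4.86, 4.81 and 4.94 in controls 1 to 5. FS 4 was the highest FS rat and the groups overlapped, and the log2 fold change was -0.076 (standard error 0.043, adjusted p = 0.578 in limma).

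**Figure D3:**
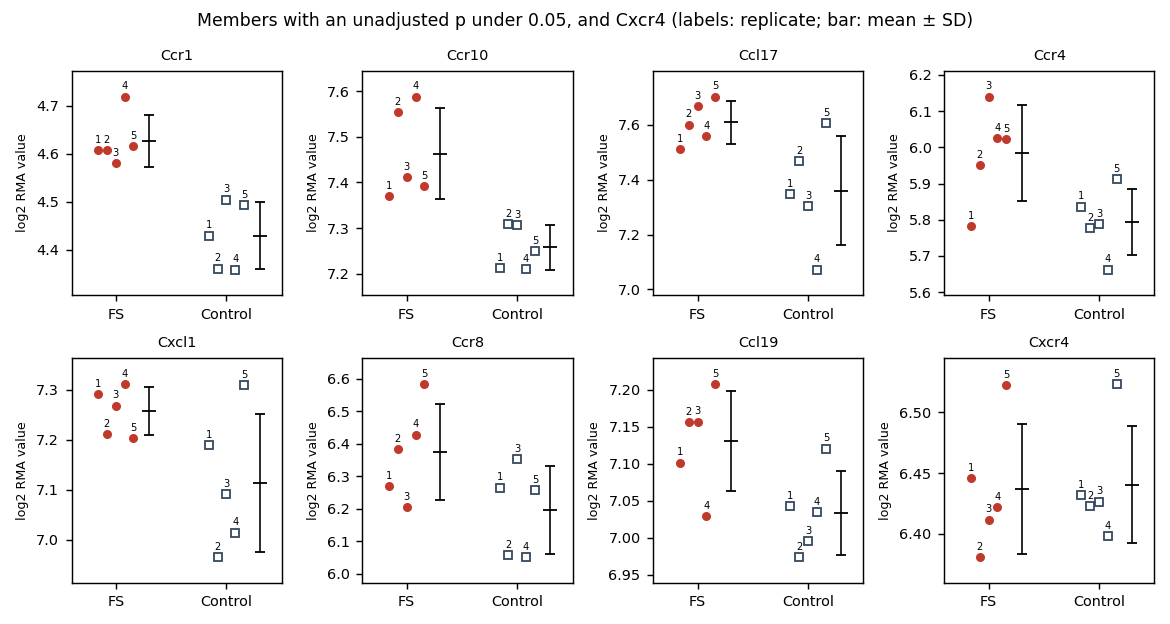
Signal in each rat (log2 RMA value) of the 7 members with an unadjusted p under 0.05 and of Cxcr4 for comparison, with FS rats as filled circles, controls as open squares, replicate numbers as labels and bars for the mean ± SD (n = 5 each). The vertical axes differ and do not start at 0; for Ccr1 and Ccr10 the groups do not overlap, and in the other 5 of the 7 at least 1 rat does.

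The Ccr7 axis guides lymphocytes and dendritic cells to lymph nodes. Its ligand Ccl19 was at 7.10, 7.16, 7.16, 7.03 and 7.21 in FS rats 1 to 5, against 7.04, 6.97, 6.996, 7.03 and 7.12 in controls 1 to 5. FS 4 lay among the controls, and control 5 overlapped the FS rats. The log2 fold change was 0.097 (standard error 0.043, adjusted p = 0.50 in limma), with an exact permutation p of 0.0556. Ccr7 itself was at 7.34, 7.48, 7.34, 7.504 and 7.31 in FS rats 1 to 5, against 7.299, 7.22, 7.35, 7.23 and 7.47 in controls 1 to 5. FS 2, FS 4 and control 5 were the high rats, and the log2 fold change was 0.085 (standard error 0.057, adjusted p = 0.630 in limma). Ccl21, the other ligand, gave 0.064 and Ccl25, the thymic and gut ligand of Ccr9, gave 0.068. Ccl25 was near background at 5.48, 5.64, 5.53, 5.59 and 5.56 in FS rats 1 to 5, against 5.42, 5.40, 5.56, 5.45 and 5.63 in controls 1 to 5, with overlapping groups and adjusted p = 0.675 in limma. The difference in Ccl25 was 0.045 without control 2 and 0.10 without control 5. Ccr9 gave -0.034.

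The atypical receptor Ackr4 scavenges Ccl19, Ccl21 and Ccl25. It was at 7.66, 8.10, 7.64, 7.76 and 7.85 in FS rats 1 to 5, against 7.63, 8.05, 7.51, 8.05 and 7.77 in controls 1 to 5. FS 2, control 2 and control 4 were high and the other rats lower, so the spread lay within both groups. Its log2 fold change was 0.0017 (standard error 0.11, adjusted p = 0.997 in limma), and without FS 2 it was -0.073. Ackr4, Cxcl10, Cxcl13 and Ccr2 are given in full for their spread, a choice made after their values were seen. Acad11 overlaps Ackr4 on the opposite strand and ranged from 7.03 to 7.16 in FS rats and from 6.93 to 7.17 in controls.

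Cxcr6, the receptor of resident T cells for Cxcl16, was at 6.45, 6.51, 6.64, 6.50 and 6.53 in FS rats 1 to 5, against 6.30, 6.30, 6.32, 6.25 and 6.67 in controls 1 to 5. FS rats lay above controls 1 to 4, and control 5 lay above every FS rat. For Cxcr6 the log2 fold change was 0.16 (standard error 0.073, adjusted p = 0.507 in limma). Fyco1, which overlaps Cxcr6 on the opposite strand, gave -0.080 (adjusted p = 0.499 in limma). Without control 5, the log2 fold change of Cxcr6 was 0.23 with an adjusted p of 0.107 in limma, the lowest reached by a named member under any alternative. The probe set shared by Cxcl16 and Zmynd15 was at 7.59, 8.42, 7.65, 7.43 and 7.75 in FS rats 1 to 5, against 7.58, 7.69, 7.54, 7.60 and 7.73 in controls 1 to 5. FS 2 stood above all others there.

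Among platelet chemokines, Pf4 was at 6.91, 6.92, 6.73, 7.02 and 7.11 in FS rats 1 to 5, against 6.79, 6.80, 6.87, 6.60 and 6.91 in controls 1 to 5. FS 4 and FS 5 were the highest and the groups overlapped, and the log2 fold change was 0.14 (standard error 0.073, adjusted p = 0.535 in limma). Without control 4 it was 0.095. Ppbp gave 0.068. The list of erythrocyte and platelet markers, which holds both, had a mean centred signal between -0.10 and 0.28 in FS rats and between -0.10 and 0.060 in controls, with FS 2 the highest. The erythrocyte genes Hbb (11.47), Alas2 (8.12) and Slc4a1 (6.85) were highest in FS 2. The platelet genes Itga2b (6.70 in FS 2), Gp9 (7.14) and Treml1 (7.79) were not.

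Xcl1, a ligand of cytotoxic lymphocytes for dendritic cells, was at 6.76, 6.90, 6.71, 6.87 and 6.90 in FS rats 1 to 5, against 6.69, 6.78, 6.78, 6.70 and 6.83 in controls 1 to 5. The groups overlapped, and the log2 fold change was 0.075 (standard error 0.047, adjusted p = 0.614 in limma). Its receptor Xcr1 gave 0.036. Cxcl17, a mucosal chemokine, was at 7.49, 7.12, 7.26, 7.24 and 7.25 in FS rats 1 to 5, against 7.04, 7.26, 7.14, 6.996 and 7.35 in controls 1 to 5. FS 1 was the highest rat and the other FS rats lay within the controls' range, and the log2 fold change was 0.12 (standard error 0.078, adjusted p = 0.632 in limma). Without FS 1 it was 0.061 and without control 4 it was 0.075.

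Blood cell markers ranged widely in signal. Of 17 leukocyte markers tested, 7 had a mean under 6, and their means ran from 4.001 (S100a8, a neutrophil and monocyte gene) to 8.34 (Cd4). Of 8 erythrocyte and platelet markers, 0 had a mean under 6. At an unadjusted p under 0.05, 2 of the 17 leukocyte markers were higher in FS rats (Mpo 0.13 and Elane 0.14) and 0 lower. Both lie in the 6 to 7.5 range, where 11.8% of all probe sets were higher. The mean centred signal of the list lay between 0.0017 and 0.060 in FS rats and between -0.10 and 0.023 in controls, with control 4 the lowest. The part of leukocytes in the values of their receptors was not tested.

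The constitutive brain axes gave small differences. The difference in Cx3cl1 was 0.025 (95% interval -0.074 to 0.12, adjusted p = 0.879 in limma). Its receptor Cx3cr1, no member of the set but a marker of microglia, was at 10.76 ± 0.034 in FS rats and 10.87 ± 0.14 in controls (SD, n = 5 each), and control 5 was the highest at 11.09. The difference in Cxcl12 was 0.00059 (95% interval -0.11 to 0.11, adjusted p = 0.998 in limma). Cxcr4 was at 6.45, 6.38, 6.41, 6.42 and 6.52 in FS rats 1 to 5, against 6.43, 6.42, 6.43, 6.40 and 6.52 in controls 1 to 5. FS 5 and control 5 were the highest and lay at the same level, and the log2 fold change was -0.0039 (standard error 0.039, adjusted p = 0.984 in limma). The mean of Cxcr4, 6.44, lay under the 95th percentile of the olfactory receptor probe sets (6.76), so weak signal limits what its difference can show. Ackr3 gave -0.034 (adjusted p = 0.871 in limma) and Cxcl14 0.015 (adjusted p = 0.915 in limma). The intervals of Cx3cl1, Cxcl12, Cxcr4, Ackr3 and Cxcl14 all lay within -0.16 and 0.12.

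Monocyte recruitment runs through Ccl2 and Ccr2. Ccl2 was at 6.60, 6.91, 6.64, 6.77 and 6.64 in FS rats 1 to 5, against 6.71, 6.81, 6.65, 6.97 and 6.91 in controls 1 to 5. Control 4, control 5 and FS 2 were the highest, and the log2 fold change was -0.10 (standard error 0.073, adjusted p = 0.650 in limma). Without control 4 it was -0.062. Ccr2 was at 5.78, 6.72, 5.97, 5.79 and 6.21 in FS rats 1 to 5, against 6.31, 6.25, 6.26, 6.32 and 6.28 in controls 1 to 5. The controls lay within a narrow range, FS 2 lay above them and the other 4 FS rats below. Over all rats the log2 fold change was -0.19 (standard error 0.15, adjusted p = 0.680 in limma). Without FS 2 the log2 fold change was -0.35 (adjusted p = 0.395 in limma), and without FS 1 or FS 4 it was -0.11. Ccl7, a further ligand of Ccr2, gave 0.049 and Ccl12, a rodent ligand, gave 0.027 near background.

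The B cell chemokine Cxcl13 had the widest spread of all members. It was at 6.92, 8.05, 6.69, 6.18 and 6.90 in FS rats 1 to 5, against 6.98, 6.96, 6.74, 6.83 and 7.18 in controls 1 to 5. FS 2 lay above all controls, FS 3 and FS 4 lay below all of them, and FS 1 and FS 5 lay within their range. For Cxcl13 the log2 fold change was 0.0086 (standard error 0.26, adjusted p = 0.995 in limma), and without FS 2 it was -0.27. Its receptor Cxcr5 gave -0.077.

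In FS 2, the mean levels of several lists of tissue and blood cell markers were high as well. The mean centred signal of 14 choroid plexus markers was 1.47 in FS 2, between -0.21 and 0.091 in the other FS rats and between -0.31 and -0.069 in controls. All 14 had a positive difference, as did 50.3% of all probe sets. All of the 14 but Ttr had a mean under 7.5. At these levels the share of positive probe sets was larger, at 62.8% under 6 and 67.7% at 6 to 7.5. The largest difference of the 14 was 1.64 for Ttr, the main secreted protein of that tissue (standard error 0.87, adjusted p = 0.547 in limma). Ttr was at 12.90 in FS 2, 9.31 in FS 5 and 7.54 to 7.76 in the other FS rats, against 6.25 to 8.02 in controls. FS 2 was also the highest for 14 meningeal fibroblast markers (0.71, against up to 0.12 elsewhere) and for 8 markers of perivascular macrophages (0.26, against up to 0.10 elsewhere). The list of 8 erythrocyte and platelet markers was likewise highest in FS 2 (0.28, against up to 0.060 elsewhere). So was that of 11 pericyte and smooth muscle markers (0.096, against up to 0.028 elsewhere). Single markers differed, and Ms4a7 (5.82 in FS 2) and Pla2g2d (6.91 in FS 2) of perivascular macrophages were not highest in that rat. For Ackr4, controls 2 and 4 (8.05 each) were almost as high as FS 2 (8.10), while their choroid plexus levels were -0.31 and -0.29. The part of these tissues and cells in Cxcl13, Ccr2, Ackr4 and the shared Cxcl16 probe set was not tested. FS 2 was the highest of the 10 rats in 12 members, 6 of them near background, and control 5 was the highest in 14.

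Cxcl9, Cxcl10 and Cxcl11 are induced by interferon and act on Cxcr3 of activated T cells. Cxcl10 was at 7.01, 7.26, 6.94, 6.79 and 7.83 in FS rats 1 to 5, against 7.05, 7.37, 7.14, 7.34 and 7.63 in controls 1 to 5. FS 5 and control 5 were the highest, and the groups overlapped. For Cxcl10 the log2 fold change was -0.14 (standard error 0.17, adjusted p = 0.817 in limma), and with 1 rat left out it ran from -0.31 (without FS 5) to -0.046 (without FS 4), with -0.059 without control 5 and -0.084 without FS 3. Cxcl9 and Cxcl11 were near background at 5.40 to 6.08 and 5.64 to 6.03 over all rats, and FS 2 was the highest rat for both. Control 5 was the lowest of all rats for Cxcl9 (5.40) and was at 5.83 for Cxcl11. FS 5 was at 5.81 for Cxcl9 and 5.74 for Cxcl11. Cxcr3 gave 0.050. Art3 overlaps Cxcl10 and Cxcl11 on the opposite strand and gave -0.088 (adjusted p = 0.652 in limma). The mean centred signal of 30 interferon-stimulated genes was 0.26 in FS 5, between -0.18 and -0.056 in the other FS rats, 0.78 in control 5 and between -0.21 and -0.074 in the other controls. At an unadjusted p under 0.05, 1 of the 30 was higher and 0 lower. The part of this signal in Cxcl9, Cxcl10 and Cxcl11 was not tested.

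**Figure D4:**
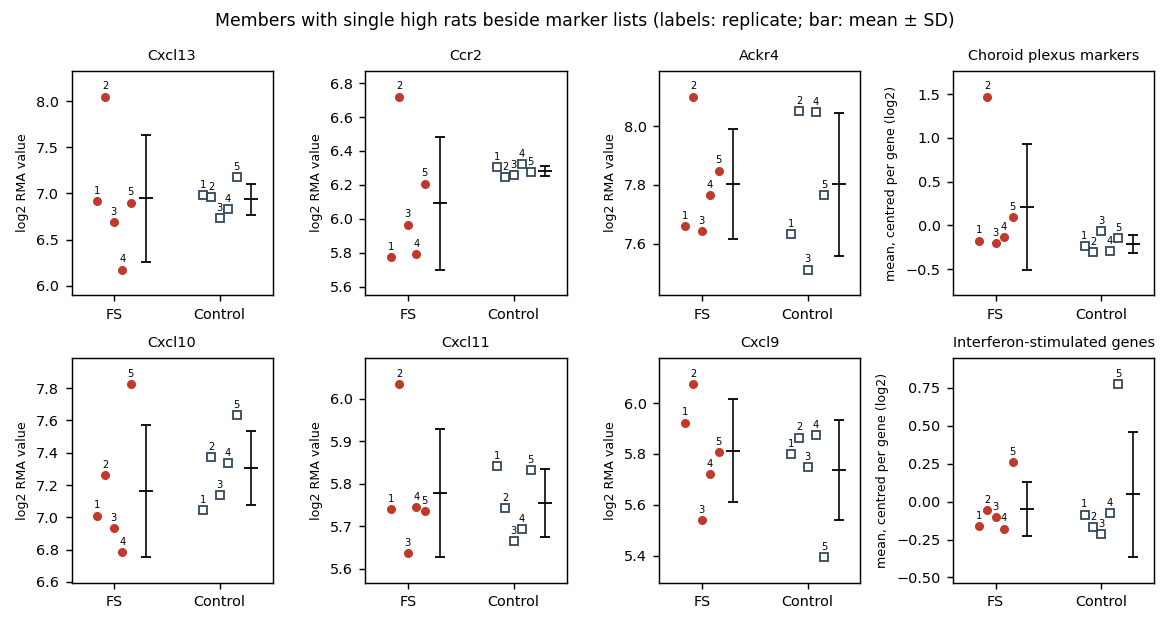
Signal in each rat (log2 RMA value) of Cxcl13, Ccr2 and Ackr4 beside the mean of 14 choroid plexus markers, and of Cxcl10, Cxcl11 and Cxcl9 beside the mean of 30 interferon-stimulated genes (both means centred per gene), with FS rats as filled circles, controls as open squares, replicate numbers as labels and bars for the mean ± SD (n = 5 each). FS 2 is highest for Cxcl13, Ccr2, Ackr4 and choroid plexus markers, and for Ackr4 control 2 and control 4 are almost as high. FS 5 and control 5 are the highest for Cxcl10 and interferon-stimulated genes, and control 5 is the lowest for Cxcl9. The vertical axes do not start at 0.

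The remaining members overlapped between the groups as well. The gut and mucosal pair Ccl20 and Ccr6 gave 0.056 and 0.051. The eosinophil receptor Ccr3 gave 0.025 with the probe set used (mean 7.52) and 0.028 with its other one (mean 4.47). Its ligands Ccl11 and Ccl24 gave -0.077 and 0.018. Ccl4, a ligand of monocytes and T cells, gave 0.021, and Ccl6 gave -0.0070.

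Members sit in gene clusters: 11 lay on chromosome 10, 10 on chromosome 14 and 10 on chromosome 8 of GRCr8. Chromosome 10 holds many CC ligands with Ccr7 and Ccr10, chromosome 14 most CXC ligands, and the members on chromosome 8 are all receptors. A total of 16 members overlap another annotated gene on this assembly. Besides the neighbours named above, Il11ra1 at Ccl27 gave 0.046, Bcl9l at Cxcr5 gave -0.0044, and Ccr1l1 at Ccr3 gave 0.13 (adjusted p = 0.578 in limma). Whether the array's probes read such neighbours was not tested.

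Promoter sequence was at hand for 38 of the 51 members. All 5 with a mean above 8 (Cx3cl1, Cxcl12, Ccl27, Ackr3 and Cxcl14) held 9 to 26 CpG dinucleotides in 300 bases, 9 being the lowest count among them. The count of 9 was taken from these 5 members after their values were seen, so that all 5 reach it by choice. This count or more was found in 3 of 23 members with a mean of 6 to 8 (Cxcr4 with 20, Cxcl1 with 11 and Ackr4 with 10), and in 0 of 10 members under 6. The order was like that of all genes tested with a promoter in the table, of which 88.3% above 8, 60.1% between 6 and 8 and 16.6% under 6 held as many. The windows printed above hold 20 CpGs in Cx3cl1, 23 in Cxcl12, and 2 each in Ccl17 and Ccr1.

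**Figure D5:**
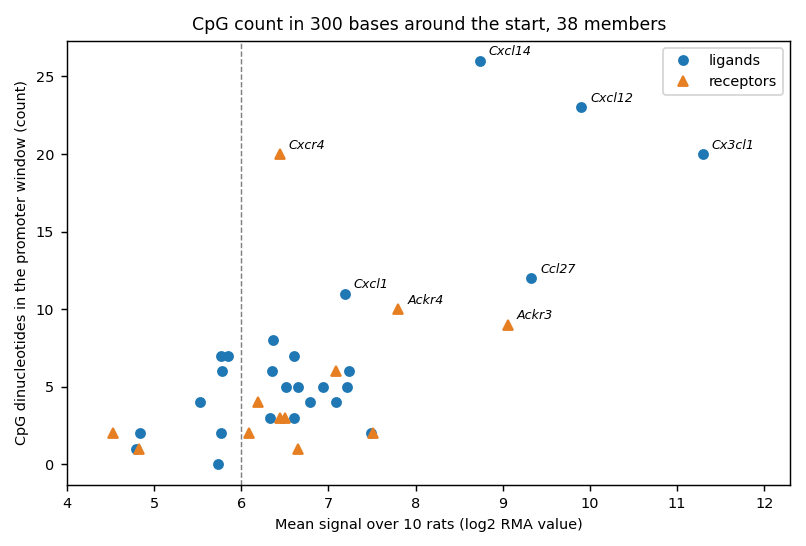
CpG dinucleotides (count) in the promoter window of 300 bases against mean signal over 10 rats (log2 RMA value) for 38 members, ligands as circles and receptors as triangles; members with 9 or more are named. The 5 members above 8 hold 9 to 26, and those under 6, left of the dashed line, hold 0 to 7.

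Motif letters were searched in the same windows. The TATA box letters were found in 11 of 38 windows, and in 9.08% of all 27457 windows. The kappaB consensus was found in 7 (Ccl20, Ccr3, Cxcl1, Cxcl2, Cxcl6, Cxcl10 and Cxcl11), and in 4.16% of all. GAAANNGAA was found in 3 (Cxcl10, Ccl19 and Ccr2), and in 9.50% of all. Of the 7 members with a kappaB match, Cxcl1 alone was among the 7 with an unadjusted p under 0.05. Such matches describe letters and not binding.

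Genes around the chemokine pathway gave no call either. Their counts at an unadjusted p under 0.05 are to be read against 5.75% (higher) and 4.09% (lower) of the whole array's tested probe sets. Among the 10401 probe sets with a mean of 7.5 or more, the lean was the other way, with 233 higher and 555 lower. The median signal was 8.99 in the list of genes for signalling inside the cell and 7.60 in that of genes that induce chemokines. The list for signalling inside the cell held 55 genes, and not all of them, Nos1 for one, are particular to chemokine receptors. Of these, 1 was higher (Rac1, a GTPase of the actin skeleton, 0.071) and 4 were lower (Nos1 -0.13, Prex1 -0.13, Lyn -0.15 and Grk3 -0.14). Of 25 genes that induce chemokines, such as NF-kB subunits and cytokine receptors, 0 were higher and 3 were lower (Myd88 -0.13, Il17ra -0.14 and Irf3 -0.082), and Nfkbia, an NF-kB inhibitor that is itself an NF-kB target, gave 0.12. Of 15 adhesion genes that stop leukocytes at vessel walls, 1 was higher (Cd34 0.17) and 2 were lower (Vcam1 -0.10 and Itgb2 -0.16). Of 7 related receptors and ligands, 1 was higher (Ccrl2, a non-signalling receptor, 0.12) and 0 lower, and Cmklr1 gave -0.0087. In each of these lists 0 genes passed after adjustment over all probe sets in limma, and the medians of the log2 fold changes were -0.0021, -0.038, -0.027 and 0.042, against 0.00044 over all probe sets.

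The cell types that make or read chemokines showed the following counts at an unadjusted p under 0.05, where 5.75% of all probe sets were higher and 4.09% lower. At a mean of 7.5 or more, where the endothelial and astrocyte markers lie, 233 of 10401 probe sets were higher and 555 lower. Of 16 microglial markers, 0 were higher or lower, and the mean centred signal lay between -0.055 and 0.043 in FS rats and between -0.14 and 0.10 in controls. Of 12 endothelial markers, 1 was higher (Cldn5 0.13) and 3 were lower (Slco1c1 -0.12, Slco1a4 -0.11 and Egfl7 -0.11). A positive difference was found in 1 of the 12 endothelial markers, all with a mean of 7.5 or more, and in 38.4% of the 10401 probe sets at that level (medians -0.073 and -0.016). Astrocyte markers held 2 lower and 0 higher of 10. In turn, 1 higher and 0 lower were found among 11 pericyte and smooth muscle, 14 choroid plexus and 12 interneuron markers each. Meningeal fibroblast (14), perivascular macrophage (8), oligodendrocyte (11), projection neuron (10) and erythrocyte and platelet (8) markers held 0 in either direction. Markers of projection neurons, with mean signals from 8.77 to 13.19, were well above background.

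As to the arrays, their medians lay between 7.35 and 7.37 in FS rats and between 7.32 and 7.37 in controls, and their correlations between 0.994 and 0.997. The split of all calls at an unadjusted p under 0.05 depended on scaling: 1053 higher and 749 lower as deposited, 762 and 823 after quantile normalization, and 597 and 1320 with arrays centred on their median. Centred on the median of the tested probe sets, an alternative added after seeing the data, it was 1287 and 575. In these 4 scalings the members with a positive difference numbered 37, 32, 31 and 40 of 51, and the share of all probe sets was 50.3%, 48.8%, 38.1% and 56.5%. The members' median difference was 0.036, 0.015, 0.014 and 0.046 in the same order.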

How the data were processed

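PFC RNA of 5 FS rats and 5 controls was hybridized to whole-transcript arrays (Affymetrix Rat Gene 1.0 ST), 1 per rat, and groups and replicate numbers came from the sample labels. The authors deposited log2 values, made with the package oligo 1.58.0 by RMA, which subtracts background, gives the arrays a common distribution and combines probes into 1 value per probe set. RMA compresses weak signals, so differences near background are understated. For the array's genome build, nothing was stated in the sources used here.

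Of 29214 probe sets, 18644 carry exactly 1 gene symbol in the platform annotation, 962 several and 9608 none. The 18304 with 1 symbol and a mean above 4 were compared in limma 3.58.1 (R 4.3.3), FS minus control, with Benjamini–Hochberg adjustment at 0.05. The function was first tested on simulated arrays. All 51 members tested were found by gene identifier in RefSeq (GRCr8), used for names, overlaps and promoters, and 0 symbols differed. Single values were also compared with exact permutation tests (scipy 1.17.1).

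The members and all lists were chosen with earlier results of these data known. Values are given in full for the 10 members of mean 6 or more and the 6 members under 6 with the smallest p, and for Cx3cl1, Cxcl12, Cxcr4, Ackr3, Cxcl14 and Ccl2. Of the lists, counts are given. A list's level in a rat is the mean of its genes after each gene's mean over the 10 rats was subtracted. Replicates are separate rats. Alternatives changed the filter, the scaling, the weights, the variance prior, the choice of probe set, the background level and the rats included, and added the replicate number as a block. Same-numbered rats correlated over 0.1, with group means removed, in 2 of 5 pairs, and 3 of 5 FS rats correlated best with their own number. The labels state no pairing, and the rats were treated as unpaired, with the replicate block as an alternative.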

Additional observations from a re-analysis of the deposited data

Results flagged for a closer look

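Each of the 102 groups (51 members, FS rats and controls apart) was examined for a highest or lowest rat far from the other 4, by Dixon's criterion of 0.71. Chance marks about 1 in 20 groups, or 5.1 here, and 7 were marked. Among FS rats, FS 4 was high for Ccl7 (6.51, the others 6.28 to 6.34) and for Ccr1 (4.72, the others 4.58 to 4.62), and FS 2 was high for Cxcl11 (6.03, the others 5.64 to 5.74). Among controls, control 5 was high for Cxcr6 (6.67, the others 6.25 to 6.32), Cxcr4 (6.52, the others 6.40 to 6.43) and Ccl11 (5.89, the others 5.53 to 5.60), and low for Cxcl9 (5.40, the others 5.75 to 5.87). Control 5 thus accounted for 4 of the 7, and it also held the highest level of interferon-stimulated genes. Ccr1, Ccl11, Cxcl9 and Cxcl11 have means under 6.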

How the results depend on the processing

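The number of arrays and signals near background limit these results. Over all alternatives 0 members passed an adjusted p of 0.05, and the lowest adjusted p of a named member was 0.107 in limma. The count of probe sets called ranged from 0 to 1 when 1 rat was left out (1 without control replicate 2) and was 0 otherwise. Members higher at an unadjusted p under 0.05 ranged from 4 to 13, and members lower from 0 to 2, when 1 rat was left out. Of all probe sets, 4.52% were higher where 4 members were, and 8.97% where 13 members were. Where 2 members were lower, 3.93% of all probe sets were lower. With arrays centred on their median there were 4 higher and 1 lower, and after quantile normalization 5 higher and 1 lower. Of all probe sets, 3.26% were higher and 7.21% lower with centred arrays, and 4.16% and 4.50% after quantile normalization. With FS replicate 2 and control replicate 5 both left out, an alternative chosen after seeing the data, there were 11 higher and 1 lower. Of all probe sets, 8.64% were then higher and 4.94% lower. Members near background numbered 4 under a mean of 5 and 36 under a mean of 7, against 15 under 6. With the replicate block, 6 members were higher, 0 lower and 0 called, with 1030 probe sets higher and 773 lower, and 3 of 5 FS rats correlated best with their own number.

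Of 26 members named with values in each rat, the log2 fold change kept its sign in 241 comparisons with 1 rat left out and 293 others, and turned in 19 and 13. It turned only in members near 0. Cxcl12 was -0.021 with centred arrays, -0.029 with array weights and -0.027 without both rats. Cxcr4 was 0.013 with weights, 0.031 without both rats and 0.0062 with arrays centred on the tested probe sets (added after seeing the data). Cxcl14 was -0.0065 with centred arrays. Cxcl13 was -0.017 after quantile normalization, -0.013 with centred arrays, -0.025 with weights and -0.21 without both rats. Ackr4 was -0.020 with centred arrays and -0.081 without both rats. With 1 rat left out, the ranges were -0.0039 to 0.049 (Cx3cl1), -0.031 to 0.029 (Cxcl12), -0.025 to 0.017 (Cxcr4), -0.064 to 0.0057 (Ackr3), -0.0063 to 0.031 (Cxcl14), -0.27 to 0.20 (Cxcl13) and -0.073 to 0.064 (Ackr4). The cause was not tested.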
